A study of Mus musculus with 8 samples.

Results

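The 10 genes described here build and load the MHC class I molecule, and they were followed in macrophages sorted from breast tumours grown in C57BL/6 mice (tumour-associated macrophages). They were found through the accession that the scanner files give each probe, matched to a RefSeq gene table, which gave 16 probes for the 10 genes out of 41174 probes on the array. All 10 genes were among the 20879 genes tested, because each of the 16 probes was well above background on all 8 arrays.

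The KO group was 4 samples from hosts labelled as ATF3 knockout, and the WT group was 4 samples from wild-type hosts. ATF3 is a stress-induced transcription factor. The hosts of both groups were C57BL/6 and received orthotopic implants of PyMT breast cancer cells, which carry the middle T oncogene of polyoma virus, so the labelled genotype is that of the host and not of the implanted cells. Tumours were taken about 21 days after implantation, and cells that carried both F4/80, a macrophage surface protein, and CD45, a leukocyte surface protein, were sorted. The labels give no allele and no age, and they do not say whether samples came from separate mice, so every p-value measures only the spread between these samples.

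An MHC class I molecule is a heavy chain, encoded in C57BL/6 by H2-K1 or H2-D1, joined to the light chain beta-2-microglobulin and to a short peptide. The peptides are cut in the cytosol by the proteasome, carried into the endoplasmic reticulum by the Tap1 and Tap2 transporter, trimmed there and placed in the groove with the help of tapasin. Interferon gamma is known to induce most of these genes, and it exchanges the catalytic subunits of the proteasome for those encoded by Psmb8, Psmb9 and Psmb10, which together form the immunoproteasome. On macrophages the finished complex is read by CD8 T cells.

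The 8 samples were each read on 1 array in 1 colour, on 2 slides that each held 2 KO and 2 WT arrays, and the samples numbered 1 and 2 of either genotype lay on slide 1. Levels are given as log2 of the processed signal relative to the 75th percentile of the same array, so that 1 unit is a doubling. The 75th percentiles were 603 to 883 intensity units on KO arrays and 587 to 748 on WT arrays, and 63.7% to 68.0% of the spots on an array were well above background. Atf3 itself, read by 1 probe, gave 5.60, 4.93, 5.04 and 4.96 in KO samples 1 to 4, against 5.0002, 5.07, 4.87 and 4.59 in WT samples 1 to 4, and its mean was above that of WT, by 0.25 (limma adjusted p = 1.00). The position of the probe relative to the deletion is unknown here, so it does not check the labels, and KO and WT below always mean the labelled genotype. The 11 macrophage marker genes, among them Adgre1 and Ptprc for the 2 sort proteins, were well above background on all 8 arrays. The 8 epithelial markers tested were so too, so this mark alone does not show which cells were sorted. Below, the 11 are the macrophage markers. Of the 11, 2 had a difference above 0, against 0 without WT sample 4 and 10 with normexp background correction. Their mean level was 3.48 to 4.68 in KO samples and 3.48 to 4.71 in WT samples.

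No gene of the class I pathway was called between the genotypes. With limma, 0 of the 10 genes had an adjusted p under 0.05 (adjusted p = 1.00 for each), against 0.00% of all genes tested, and 0 of 10 had an unadjusted p under 0.05, against 3.33% of all genes tested. The KO and WT arrays overlapped for all 10 genes. Among the 20879 genes tested, KO lay wholly above WT for 155 (0.742%) and wholly below WT for 288. The difference KO minus WT was above 0 for 7 of the 10 genes, where 48.3% of all genes tested lay above 0, and its median over the 10 was 0.12 against −0.01 over all genes. That count depended on WT sample 4, the lowest WT array for all 10 genes. Without it 2 of the 10 differences were above 0, against 45.5% of all genes, with a median of −0.05 against −0.03 over all genes. KO sample 4, the lowest KO array for 7 of the 10 genes, stayed in that fit. The sample numbers are thus unbalanced here and wherever WT sample 4 alone is left out below. Leaving out both samples numbered 4 was not tried. Within slide 1, which holds numbers 1 and 2 of both genotypes, 5 of the 10 were above 0, against 46.8% of all genes. Within slide 2, 7 of the 10 were, against 49.5%. With normexp background correction 10 of 10 were above 0, against 39.5% of all genes, with a median of 0.29 against −0.13 over all genes. In sorted cells, fewer cells of a type and less RNA per cell cannot be told apart.

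**Figure D1:**
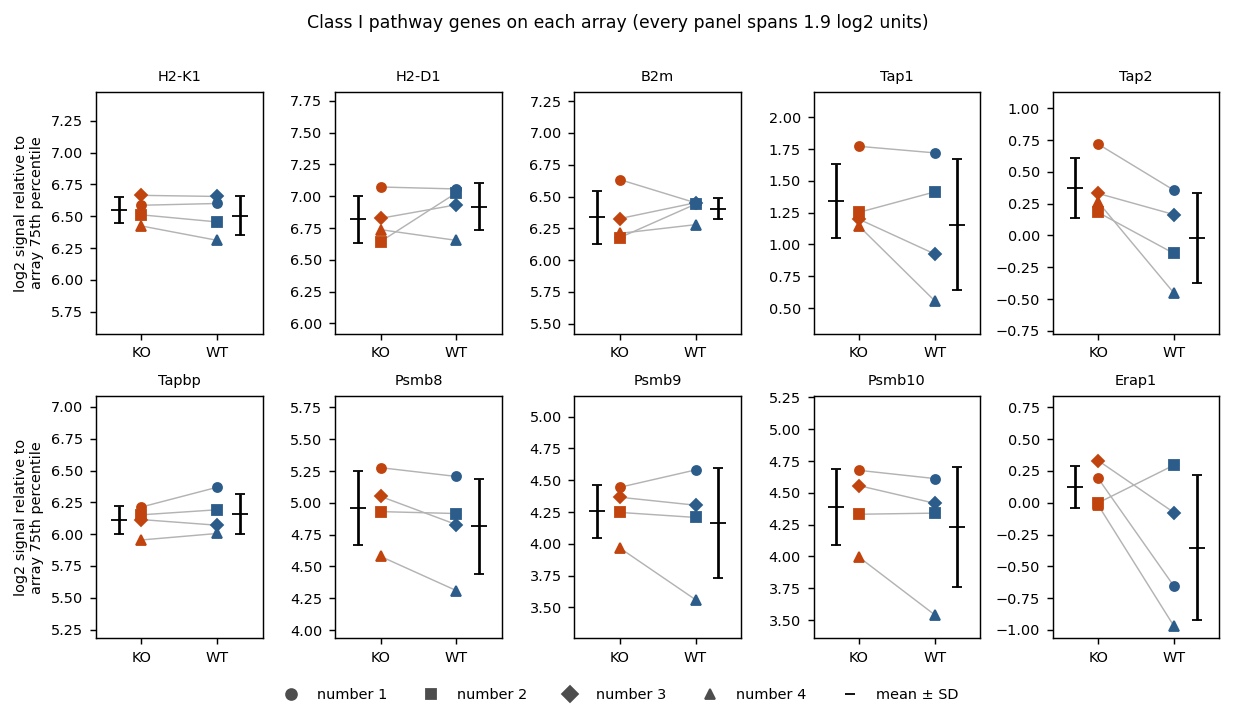
Level of each class I pathway gene on each array, as log2 signal relative to the array's 75th percentile, with KO left of WT, symbols for the sample number, grey lines between same-numbered samples, and the mean ± SD beside each group (n = 4 each). The triangles of number 4 lie lowest among WT samples in all 10 panels, while the spread is narrow for H2-K1, H2-D1, B2m and Tapbp and wide for Tap1, Tap2, Psmb8, Psmb9, Psmb10 and Erap1.

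The heavy chain genes were at like levels in both genotypes. H2-K1 measured 6.59, 6.51, 6.66 and 6.42 in KO samples 1 to 4, against 6.60, 6.46, 6.66 and 6.31 in WT samples 1 to 4. The 8 arrays lay within 0.35 log2 units, and the arrays numbered 4 were the lowest of each genotype. The difference was 0.04 with a standard error of 0.16, and its 95% interval of −0.32 to 0.40 lies within 0.5 log2 units of 0. The other H2-K1 probes gave 0.00 and 0.14.

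H2-D1 measured 7.07, 6.64, 6.83 and 6.74 in KO samples 1 to 4, against 7.06, 7.03, 6.93 and 6.65 in WT samples 1 to 4. Its difference was −0.10 (95% interval −0.50 to 0.31), and its second probe gave 0.00. The KO sample was the higher of the same-numbered pair in 2 of 4 pairs. H2-K1 and H2-D1 are close relatives, and probes for one may also bind transcripts of the other, which was not tested.

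The promoters of these genes are shown because interferon and NF-kB elements in them are the textbook route of their induction, and because the 2 heavy chain windows share one such element. The sequences are RefSeq windows of GRCm38.p6, from 250 bases before to 50 bases after the annotated start and 300 bases long, and 9 of the 10 genes had one. The 5 motifs were searched on both strands, with N for any base. The interferon-stimulated response element (ISRE) was 2 copies of GAAA with NN between them, the gamma-activated site (GAS) was TTCNNNGAA, and the NF-kB site was GGG, NN, TT, N and CC in a row. The cyclic AMP response element (CRE) was TGACGTCA and the AP-1 site TGANTCA, both bound by dimers of the ATF and AP-1 families. Capitals mark every match.

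H2-K1, chr17:34000284-34000583, minus strand: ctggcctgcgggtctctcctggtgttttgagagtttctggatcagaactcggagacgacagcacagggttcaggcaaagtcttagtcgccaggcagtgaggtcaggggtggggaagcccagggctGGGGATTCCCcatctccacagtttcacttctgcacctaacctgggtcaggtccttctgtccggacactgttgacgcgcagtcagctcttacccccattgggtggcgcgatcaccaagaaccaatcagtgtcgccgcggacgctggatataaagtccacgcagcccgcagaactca
H2-D1, chr17:35262844-35263143, plus strand: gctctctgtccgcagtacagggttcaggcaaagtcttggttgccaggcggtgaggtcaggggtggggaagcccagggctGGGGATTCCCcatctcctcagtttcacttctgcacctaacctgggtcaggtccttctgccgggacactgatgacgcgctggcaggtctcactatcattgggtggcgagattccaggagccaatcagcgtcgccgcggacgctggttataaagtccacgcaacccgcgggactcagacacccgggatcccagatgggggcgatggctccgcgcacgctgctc

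Both heavy chain windows held the same NF-kB match, GGGGATTCCC, which lies inside the longest run of letters they share, of 47 bases. That motif occurred in 4.79% of 32851 promoter windows. Counted from the annotated start, the match begins at −171 in H2-D1 and at −125 in the H2-K1 window printed here. RefSeq gives a second H2-K1 window from another annotated start, in which the same match begins at −111.

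B2m, which encodes the light chain that all classical heavy chains need, was read by probes that differed in direction. The probe that stood for the gene measured 6.63, 6.18, 6.33 and 6.21 in KO samples 1 to 4, against 6.45, 6.44, 6.45 and 6.28 in WT samples 1 to 4, a difference of −0.07 (95% interval −0.45 to 0.31). The second, dimmer probe gave 5.81, 5.54, 5.63 and 5.38 in KO samples, against 5.16, 5.62, 5.25 and 5.05 in WT samples. Its difference was 0.32 (95% interval −0.12 to 0.76, limma unadjusted p = 0.133 and adjusted p = 1.00). WT sample 2 was the WT array that overlapped the KO range on this probe. The B2m promoter held an ISRE and, a few bases on, an NF-kB match on the other strand.

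B2m, chr2:122147437-122147736, plus strand: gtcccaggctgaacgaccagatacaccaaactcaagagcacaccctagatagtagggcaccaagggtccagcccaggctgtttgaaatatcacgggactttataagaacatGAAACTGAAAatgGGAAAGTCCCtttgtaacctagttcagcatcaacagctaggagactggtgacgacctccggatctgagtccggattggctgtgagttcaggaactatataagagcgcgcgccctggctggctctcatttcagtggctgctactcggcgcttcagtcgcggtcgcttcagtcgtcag

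The ISRE letters occurred in 3.44% of all windows, and their match in B2m begins at −139 from the start.

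Tapbp encodes tapasin, the chaperone that holds an empty class I molecule at the transporter while it is loaded. It measured 6.21, 6.15, 6.11 and 5.95 in KO samples 1 to 4, against 6.37, 6.19, 6.07 and 6.01 in WT samples 1 to 4. The samples numbered 1 were the highest and those numbered 4 the lowest of each genotype, and the difference of −0.05 (95% interval −0.42 to 0.32) was smaller than the spread within either group. A second probe, for another Tapbp transcript, gave −0.13.

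The transporter genes had larger differences and larger errors. Tap2 measured 0.72, 0.18, 0.33 and 0.26 in KO samples 1 to 4, against 0.36, −0.14, 0.16 and −0.45 in WT samples 1 to 4. The KO sample was the higher in 4 of 4 same-numbered pairs, as it was for 7.28% of all genes tested, yet WT sample 1 lay above 3 of the KO samples. The difference was 0.39 with a standard error of 0.23, or 1.31-fold (95% interval −0.14 to 0.92 on the log2 scale, limma unadjusted p = 0.127 and adjusted p = 1.00). Without WT sample 4 it was 0.25. With the sample number as a block the limma unadjusted p was 0.042 and the adjusted p 0.653.

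Tap1, the partner of Tap2 in the transporter, measured 1.77, 1.25, 1.20 and 1.14 in KO samples 1 to 4, against 1.72, 1.41, 0.93 and 0.56 in WT samples 1 to 4. The KO sample was higher in 3 of 4 pairs, and the arrays numbered 1 were the highest of each genotype. The difference was 0.19 (95% interval −0.48 to 0.86), and it was −0.05 within slide 1, 0.43 within slide 2 and −0.01 without WT sample 4.

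The immunoproteasome genes moved together from array to array more than with genotype. Psmb8 measured 5.28, 4.93, 5.05 and 4.58 in KO samples 1 to 4, against 5.21, 4.92, 4.83 and 4.31 in WT samples 1 to 4. Psmb9 measured 4.44, 4.25, 4.37 and 3.97 in KO samples, against 4.58, 4.21, 4.30 and 3.56 in WT samples. Psmb10 measured 4.68, 4.33, 4.56 and 4.00 in KO samples, against 4.61, 4.34, 4.42 and 3.54 in WT samples. All 3 genes were highest in the samples numbered 1 and lowest in those numbered 4, in both genotypes, and over the 8 arrays their levels correlated at r of 0.96 to 0.98.

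The differences were 0.14 for Psmb8 (95% interval −0.43 to 0.71), 0.09 for Psmb9 (−0.48 to 0.67) and 0.16 for Psmb10 (−0.48 to 0.81), and a second Psmb8 probe gave 0.19. The KO sample was the higher in 4 of 4 pairs for Psmb8 and in 3 of 4 for Psmb9 and for Psmb10. Without WT sample 4 the 3 differences were −0.02, −0.11 and −0.07.

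Each of these subunits takes the place of a constitutive one, Psmb8 that of Psmb5, Psmb9 that of Psmb6 and Psmb10 that of Psmb7. None passed the test, and the constitutive genes differed by 0.07 for Psmb5, −0.08 for Psmb6 and −0.02 for Psmb7, with 1 of 3 above 0, against 0 of 3 without WT sample 4 and 3 of 3 with normexp. The within-array log2 ratio of Psmb10 to Psmb7 was higher in KO in 4 of 4 pairs, by 0.18 on average (two-sided exact permutation p = 0.514). The ratio of Psmb9 to Psmb6 was higher by 0.18 (exact p = 0.371) and that of Psmb8 to Psmb5 by 0.07 (exact p = 0.686), each in 3 of 4 pairs. Without WT sample 4 the first was 0.02 and the second 0.05, and without KO sample 1 the first was 0.07. Adjusted over the 3 ratios the exact permutation p was 0.686 for each, where the smallest exact p that 4 against 4 can give is 0.0286. That test ignores the sample number. With same-numbered samples as pairs, the exact sign-flip p was 0.125 for Psmb10 to Psmb7 (0.375 adjusted over the 3 ratios). It was 0.25 for Psmb9 to Psmb6 (adjusted 0.375) and 0.625 for Psmb8 to Psmb5 (adjusted 0.625). The smallest sign-flip p that 4 pairs can give is 0.125, so this test could not pass.

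Psmb9, Tap1, Psmb8 and Tap2 stand in this order as neighbours on chromosome 17, inside the class II region of the MHC. Psmb9 and Tap1 point away from each other and their promoter windows overlap by 275 bases, so the window of Tap1 is printed for both.

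Tap1, chr17:34187306-34187605, plus strand: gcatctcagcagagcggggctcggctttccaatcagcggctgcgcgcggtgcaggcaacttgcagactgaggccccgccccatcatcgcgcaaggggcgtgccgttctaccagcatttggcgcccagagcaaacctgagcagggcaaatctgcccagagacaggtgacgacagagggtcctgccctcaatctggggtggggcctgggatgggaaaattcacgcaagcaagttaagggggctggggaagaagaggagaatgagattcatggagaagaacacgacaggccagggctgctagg

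None of the 5 motifs matched in this shared window, nor in those of Tapbp and Psmb10, and Psmb8 held 1 GAS match, of letters present in 8.3% of all windows. CRE and AP-1 letters were found in the windows of 0 of the 9 genes, against 1.79% and 7.81% of all windows, which says only that these letters do not occur in these windows.

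Erap1 encodes the aminopeptidase of the endoplasmic reticulum that trims peptides to the length class I accepts, and it had the largest difference of the 10 genes. It measured 0.19, 0.00, 0.33 and −0.02 in KO samples 1 to 4, against −0.66, 0.30, −0.08 and −0.97 in WT samples 1 to 4. The KO samples lay close together while the WT samples spread over more than 1 log2 unit, and WT sample 2 lay above 3 of the KO samples. The difference was 0.48 with a standard error of 0.29, or 1.39-fold (95% interval −0.20 to 1.15, limma unadjusted p = 0.141 and adjusted p = 1.00). With each sample left out in turn it stayed above 0. The lowest value was 0.27, with WT sample 4 removed, and the highest 0.69, with WT sample 2 removed. The Erap1 window held an ISRE match on the opposite strand that spans the annotated start.

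Erap1, chr13:74639603-74639902, plus strand: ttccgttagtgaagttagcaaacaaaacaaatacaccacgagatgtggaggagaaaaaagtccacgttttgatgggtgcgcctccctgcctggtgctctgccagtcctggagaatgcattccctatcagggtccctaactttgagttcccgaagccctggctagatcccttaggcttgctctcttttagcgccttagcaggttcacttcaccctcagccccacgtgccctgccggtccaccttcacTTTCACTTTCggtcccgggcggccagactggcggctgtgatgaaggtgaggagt

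**Figure D2:**
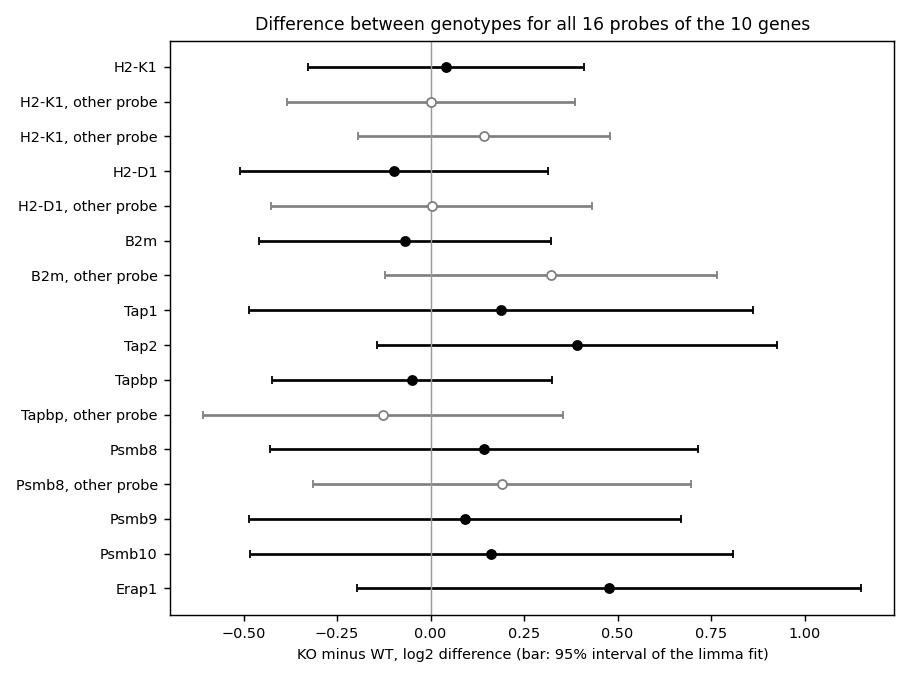
Difference KO minus WT in log2 units for each of the 16 probes, each tested on its own, with 95% intervals from the limma fit over all kept probes. Filled points are the probe that stands for its gene and open points its other probes, and all 16 intervals include 0.

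How precisely the genes were measured differed between them. The 95% interval lay within 1 log2 unit of 0 for 9 of the 10 genes, Erap1 being the exception, where 51.3% of all genes tested had such an interval. It lay within 0.5 units for 3 of 10, H2-K1, B2m and Tapbp, as read by the brightest probe of each. The intervals of the dimmer B2m probe (−0.12 to 0.76) and the dimmer Tapbp probe (−0.61 to 0.35) went beyond 0.5 units. Those of the other H2-K1 probes did not. The part of probe brightness in these intervals was not tested. All these intervals are from the fit without the sample number. With the number as a block, those of H2-D1 (−0.45 to 0.26), Psmb8 (−0.16 to 0.45) and Psmb9 (−0.27 to 0.46) also lay within 0.5 units. That of Tap2 was 0.02 to 0.76 with the block (limma adjusted p = 0.653), and that of Erap1 still went beyond 1 unit, at −0.18 to 1.14. The WT samples spread more than the KO samples for 8 of the 10 genes, against 56.5% of all genes, and the median SD of the 10 was 0.21 in KO samples and 0.36 in WT samples (n = 4 each).

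The levels of these genes followed the sample number more closely than genotype. The labels do not say what same-numbered samples share, but the number took a median of 83.3% of the sum of squares of the 10 genes and genotype 5.8%, against 66.3% and 4.9% over all genes and 42.9% and 14.3% expected from the degrees of freedom. The number's share was 92.5% for H2-K1, 91.2% for Psmb8 and 88.4% for Psmb10, and the smallest shares were 54.7% for Tap2 and 37.8% for Erap1, for which genotype took 35.9% and 30.2%. KO samples were lowest in number 4 for 7 of the 10 genes, against 29.7% of all genes, and WT samples for 10 of 10, against 35.2%.

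**Figure D3:**
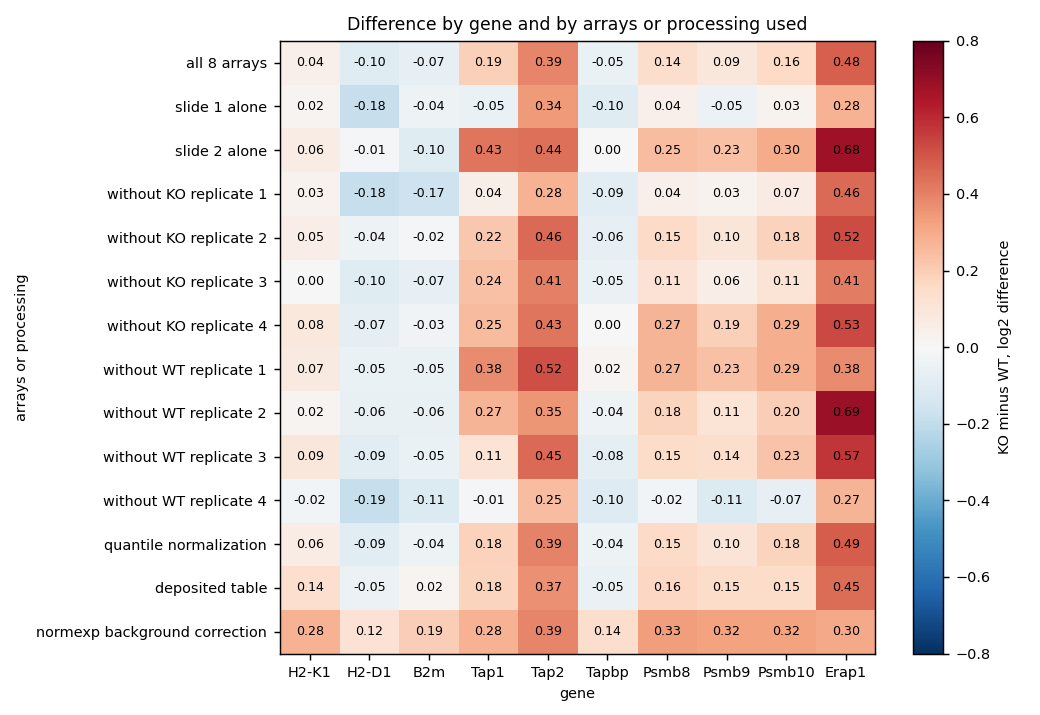
Difference KO minus WT in log2 units (colour and printed value) for each gene in columns, by the arrays or processing used in rows. Tap2 and Erap1 are above 0 in every row, and the row without WT replicate 4 is below 0 for the other 8 genes.

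The array that was lowest for the class I genes also differed in its mix of cell markers. In WT sample 4 the mean level of 11 macrophage markers was 3.48, against 4.15 to 4.71 in the other WT samples, and that of 8 epithelial markers was 1.69, against −0.88 to 1.25. KO sample 4 showed the same, with macrophage markers at 3.48, against 3.96 to 4.68 in the other KO samples, and epithelial markers at 2.29, against −0.81 to 1.13. Fibroblast markers were likewise highest in the samples numbered 4, at 2.32 in KO and 1.81 in WT. The mean of the 10 class I genes was 3.93 in KO sample 4 and 3.58 in WT sample 4, the lowest of each group, against 4.04 to 4.36 in the other KO samples and 4.07 to 4.23 in the other WT samples. The part of other cells in these levels was not tested.

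T cell, NK and B cell markers were present too, and class I genes are active in those cells as well. The 14 T cell markers had mean levels of 0.02, 0.08, −0.93 and −0.50 in KO samples 1 to 4, against −0.84, −0.03, −1.20 and −0.84 in WT samples 1 to 4, higher in KO in 4 of 4 pairs. Of the 14, 12 had a difference above 0, against 10 with normexp. Cd6, with the smallest unadjusted p of the list, went the other way at −0.62, but was at 0.41 on a dimmer probe. The mean of the 12 NK and cytotoxic markers was higher in KO in 4 of 4 pairs, with Gzma at 1.21 and Tbx21, a transcription factor of these cells, at 1.098 (limma adjusted p = 1.00 for each). B cell markers gave 4 of 5 above 0, with Ms4a1 at 1.65, while Pax5 was at −0.50 and lower in KO in 4 of 4 pairs. Endothelial markers were 0 of 9 above 0, with Vwf at −0.64 (limma adjusted p = 1.00). The part of these cells in the class I values was not tested.

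**Figure D4:**
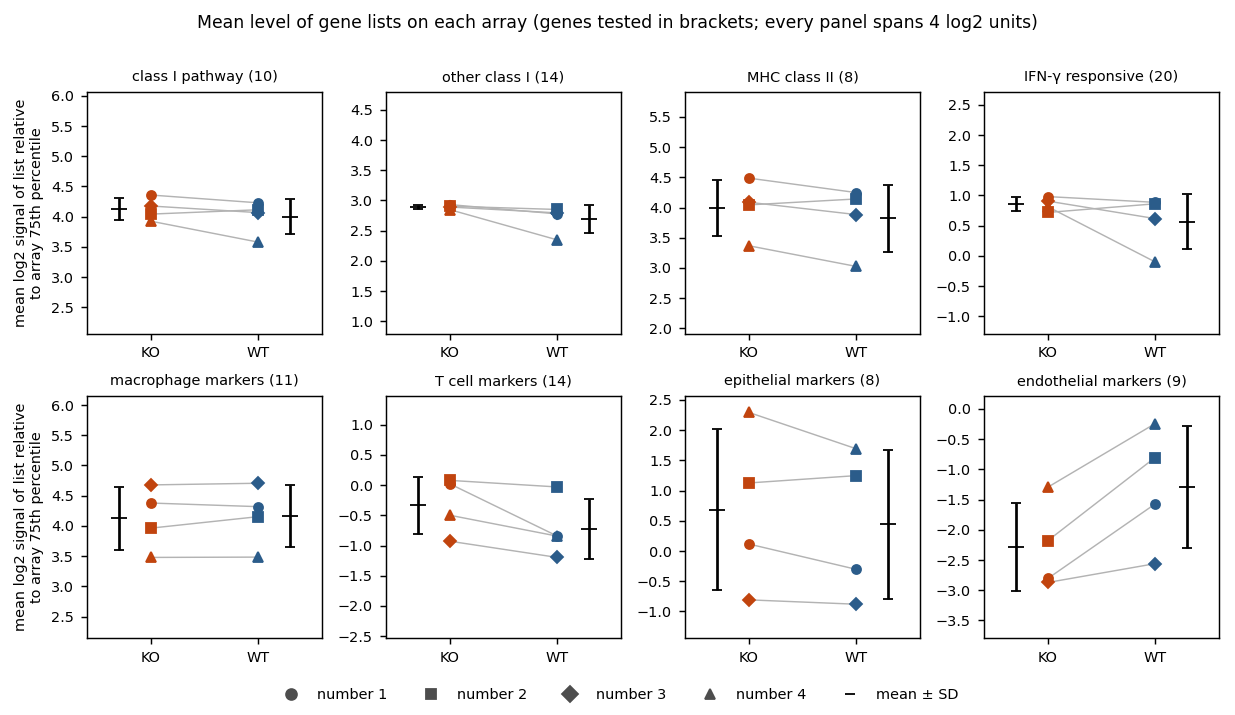
Mean log2 level of 8 gene lists on each array relative to the array's 75th percentile, with KO left of WT, symbols for the sample number, grey lines between same-numbered samples and mean ± SD beside each group (n = 4 each). The number 4 samples are lowest for the class I pathway, class II and macrophage lists and highest for epithelial markers.

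Non-classical and class I-like heavy chain genes include ligands of NK receptors and lipid presenters. Their differences were of 1 sign, from 0.01 to 0.70, but not with normexp. Of the 14 tested, 14 had a difference above 0, with a median of 0.11, and 0 passed. Without WT sample 4 only 5 of the 14 had a difference above 0, with a median of −0.03, and with normexp 12 had, with a median of 0.22. The mean level of the list was 2.85 to 2.93 in KO samples, against 2.78 to 2.85 in WT samples 1 to 3 and 2.35 in WT sample 4. Cd1d1, which presents lipids to NKT cells, measured −1.95, −1.79, −2.78 and −1.80 in KO samples 1 to 4, against −2.03, −2.94, −2.76 and −3.38 in WT samples 1 to 4. Its difference was 0.70 (limma unadjusted p = 0.079 and adjusted p = 1.00). H2-Bl, whose KO arrays all lay above its WT arrays, differed by 0.17 and by 0.91 on a dimmer probe (limma adjusted p = 1.00 for each), and H2-T24 differed by 0.46, with −0.18 on its other probe.

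Chaperones that fold the heavy chain before loading turned direction with the background correction. Of 6 tested, 2 lay above 0 and 0 passed, with a median of −0.05, but 5 lay above 0 with normexp, with a median of 0.10. Calreticulin (Calr), which keeps the loading complex together, differed by −0.12 (95% interval −0.46 to 0.21), calnexin (Canx) by −0.05 and Tapbpl, a tapasin relative that edits peptides, by −0.06. No probe was matched to Pdia3 here.

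The proteasome activator genes gave 4 of 5 above 0 and 0 that passed, with a median of 0.18. Psme2, a subunit of the interferon-induced cap of the proteasome, measured 3.98, 3.74, 3.96 and 3.47 in KO samples 1 to 4, against 3.50, 3.58, 3.53 and 3.39 in WT samples 1 to 4. It was higher in KO in 4 of 4 pairs, by 0.29 (95% interval −0.11 to 0.69, limma unadjusted p = 0.134 and adjusted p = 1.00), while its partner Psme1 differed by 0.06. Psme3, which caps nuclear proteasomes, differed by 0.31 and Pomp, which assembles the proteasome, by 0.18, and neither passed. Without WT sample 4, 3 of these 5 were above 0, with a median of 0.16.

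Cytosolic peptidases gave 4 of 7 above 0 (0 passed), with a median of 0.06, and 2 of 7 without WT sample 4, with a median of −0.04. Among them were Lap3, an interferon-induced aminopeptidase, at 0.19 and Thop1, which destroys peptides, at −0.24. Cross-presentation genes gave 6 of 8 above 0 (0 passed), with a median of 0.03, and 2 of 8 without WT sample 4. MHC class II genes gave 6 of 8 above 0 (0 passed), with a median of 0.13, and 2 of 8 without WT sample 4, and Cd74, the class II invariant chain, differed by 0.19.

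The transcription factors behind class I expression did not separate the genotypes. Of 13 tested, 7 lay above 0 and 0 passed, with a median of 0.04, and 3 lay above 0 without WT sample 4. Irf1, which binds the ISRE, measured 3.78, 2.91, 3.40 and 3.22 in KO samples 1 to 4, against 3.67, 3.44, 3.38 and 2.90 in WT samples 1 to 4, a difference of −0.02 (95% interval −0.60 to 0.56). Rfxank, a subunit of the RFX complex on class I and class II promoters, differed by 0.32. No probe was matched to Nlrc5, the class I transactivator, here.

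Genes of the interferon gamma response outside the class I pathway had 17 of 20 above 0 and 0 that passed, with a median of 0.21, and 11 of 20 without WT sample 4, with a median of 0.03. Their mean level was 0.72 to 0.98 in KO samples, against 0.62 to 0.89 in WT samples 1 to 3 and −0.10 in WT sample 4. The GTPase gene Gbp6 measured −1.51, −1.51, −0.88 and −1.12 in KO samples 1 to 4, against −2.18, −2.37, −1.48 and −1.996 in WT samples 1 to 4, and the groups nearly parted. It differed by 0.75 (95% interval 0.16 to 1.33, limma unadjusted p = 0.0186 and adjusted p = 1.00). The GTPase genes Tgtp1, by 0.81, and Iigp1, by 0.65, were higher in 4 of 4 pairs (limma adjusted p = 1.00 for each). Of the genes of the ligand, its receptor and kinases, 3 of 6 lay above 0 and 0 passed, against 1 of 6 without WT sample 4 and 5 of 6 with normexp. The kinase gene Jak1 differed by −0.17, Jak2 by −0.24 but by 1.11 on a dimmer probe, and the inhibitor gene Socs1 by 0.33.

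Among 13419 other named genes, the 5 whose levels ran most like the mean of the 10 class I genes over the 8 arrays were Psmg4 (r = 0.99), which encodes a proteasome assembly chaperone, the kinase gene Nuak2 (r = 0.99), Ptafr (r = 0.99), the receptor of platelet-activating factor, the class Ib gene H2-Q10 (r = 0.98) and Msra (r = 0.98), a methionine sulfoxide reductase. The points share arrays, scaling and sample number, and the r values are a description of the best of many genes. Psmg4 differed by 0.14 between the genotypes and H2-Q10 by 0.04 (limma adjusted p = 1.00 for each). Other H2-Q10 probes gave 0.22 to 0.72. H2-Q10 is known from liver, and whether its brightest probe also reads other heavy chains was not tested. Among the class I genes, each level correlated with the mean of the other 9 at r of 0.47, for Erap1, to 0.97, for Psmb10.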

How the data were processed

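The arrays are Agilent arrays read in 1 colour. The authors' extraction software was Agilent Feature Extraction, version 10.7.1.1 per the file headers and 10.5 per the submitters' processing notes. Per the labels' protocols, 250 ng of total RNA per sample was labelled with Cy3. The unit is intensity, and the deposited processed signal already has the background removed, per the file headers. The deposited table of processed intensity values has column medians of 92.0 to 94.0 and correlated with the same arrays' scanner values at r of 0.976 to 0.984 over probes (log2), so it is linear and runs the same way. How it was normalized is unknown here, and it served as an alternative.

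Non-control spots without an outlier mark were used, log2 values were averaged per probe, and each array's 75th percentile over probes was subtracted. A probe was well above background on an array where at least 50% of its spots were so marked. A probe needed that mark on at least 4 of 8 arrays (27165 of 41174 had it), and the brightest stood for its gene. Accessions without version named 25089 probes through RefSeq GRCm38.p6, and the headers name mm9, so no gene coordinates are given beyond the promoter windows. Genotypes were compared over all 20879 genes by moderated two-sided tests (limma 3.58.1, lmFit and eBayes, under R 4.3.3), adjusted by Benjamini-Hochberg. Of these genes, 38 lacked a value on an array and none of them was a class I member. The fit was tested on simulated data.

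The members and lists were chosen with earlier results of these data known. The text names all members, Atf3, up to 3 genes per list by smallest p, 12 fixed pathway genes where measured (1 is not reported here), and the 5 genes most like the members. Adgre1 and Ptprc were added as sort markers. Same-numbered samples deviated together (r of 0.30, 0.14, 0.70 and 0.51 over genes for numbers 1 to 4, all over 0.1), so same numbers were taken as pairs. Number 2 is less clear, because KO sample 4 with WT sample 2 reached 0.15 and KO sample 2 with WT sample 4 reached 0.14. Slide and scan coincide. The number of arrays limits the precision.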

Additional observations from a re-analysis of the deposited data

Results flagged for a closer look

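Of 74 groups of 4 arrays examined, 5 held an array far from the other 3, where chance alone gives about 1 in 20. B2m in WT samples had WT sample 4 far below the rest, at 6.28. The mean level of the non-classical and class I-like list had WT sample 4 far below the other WT samples, at 2.35, and that of the proteasome activator list had the same sample below, at 3.32. The mean level of the transporter genes Tap1 and Tap2 had KO sample 1 far above the other KO samples, at 1.24. The within-array log2 ratio of Psmb9 to Psmb6 had KO sample 4 far below the other KO samples, at −0.68.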

How the results depend on the processing

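Over the alternatives to the processing and with each sample left out, 0 of the 10 class I genes passed in any fit, and the count over all genes was 0 in each except without KO sample 1, where 1 gene passed. Leaving out 1 sample gave 0 to 1 genes called. Of 196 values of single class I genes under alternatives, 181 kept their direction and 15 turned, none of them past the threshold. Some of the 181 could not turn, because the alternative left each class I difference exactly as it was. These were slide or replicate as a block, and eBayes with trend and robust settings. No filter on dim probes, and a mark well above background on all arrays, also left each difference unchanged. Leaving out 1 sample moved H2-K1 between −0.024 and 0.091, Tap1 between −0.011 and 0.377, Tapbp between −0.102 and 0.019, Psmb8 between −0.025 and 0.274, Psmb9 between −0.108 and 0.232 and Psmb10 between −0.067 and 0.294, and the negative ends for H2-K1, Tap1, Psmb8, Psmb9 and Psmb10 came without WT sample 4. The count of class I genes above 0, an alternative chosen after seeing the data, ranged from 2, without WT sample 4, to 8 over left-out samples, and was 5 within slide 1 and 10 with normexp. Within slide 1 the difference turned to −0.0545 for Tap1 and to −0.0486 for Psmb9. Normexp background correction with an offset of 50 moved the median of all genes to −0.13 and turned H2-D1 to 0.12, B2m to 0.19 and Tapbp to 0.14, and the deposited table turned B2m to 0.0249. Other probes turned H2-D1 to 0.00274 and B2m to 0.32. The ratio of Psmb8 to Psmb5 turned to −0.0579 within slide 2, and over left-out samples it ranged from −0.0259 to 0.201. The replicate block changed no call, with 0 genes called, and by construction it leaves the differences and their median of 0.12 as they are. That median was 0.29 with normexp, −0.00984 within slide 1, 0.24 within slide 2 and −0.05 to 0.25 over left-out samples. Over left-out samples the ratio of Psmb10 to Psmb7 ranged from 0.02 to 0.33 and that of Psmb9 to Psmb6 from 0.05 to 0.27. Genes with an unadjusted p under 0.05 numbered 695 of 20879, but 1573 with the replicate block, 1156 of 32665 with no filter on dim probes, 414 with normexp, 224 within slide 2 and 448 without KO sample 2. The cause of these turns was not tested.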
